A study of Mus musculus with 12 samples.

Results

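Macroautophagy wraps cytoplasm, damaged mitochondria or lipid in a double membrane and delivers it to the lysosome. The 37 genes described here encode its core machinery and cargo receptors. They were chosen by name, by a rule that uses no measured value but was written with earlier results of these data known, and are 37 of the 28030 genes in the deposited table. All 37 passed the filter on low counts, which kept 12086 genes.

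The libraries come from mouse hepatocytes isolated from the pericentral (PC) or the periportal (PP) zone of the liver lobule with digitonin, a detergent that lyses the cells of the zone not wanted. All mice were WT females of 12 weeks on normal chow, trained for 3 days with 16 h of food removal and 8 h of feeding, and given 20% sucrose in the drinking water with food on the day of the experiment. The 4 groups hold 3 libraries each: fasted PC and fasted PP, taken 24 h after food and sucrose water were removed, and fed PC and fed PP, taken after 4 h of feeding. The labels call the libraries biological replicates but do not say which mouse each came from, so the tests reflect how far these libraries vary, which may be technical.

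Autophagy starts when the ULK1 kinase complex is released from inhibition by the nutrient sensor mTORC1 or activated by AMPK. A lipid kinase complex around Pik3c3 then marks the forming membrane with the phosphoinositide PI3P, PI3P-binding and lipid transfer proteins expand it, and a ubiquitin-like conjugation system attaches LC3 and GABARAP proteins to it, which hold the cargo receptors. In liver, autophagy is known for supplying amino acids and lipids during a fast and for clearing mitochondria, and the transcription factors Tfeb and Tfe3 act on many of its genes. Messenger RNA levels, which are all that was measured here, are not a measure of autophagic flux.

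The libraries held 16245846 to 27449412 estimated counts, and levels are given in CPM (counts per 1000000, after scaling for library size). The anchor genes followed the labels: Oat, a pericentral enzyme, was higher in PC by 6.42 ± 0.66 (log2 fold change ± SE) in fasted mice and by 6.13 ± 0.65 in fed mice, and Pck1, the gluconeogenic enzyme induced by fasting, was higher in fasted mice by 5.14 in PC and by 3.39 in PP. Fasted PC replicate 1 stood apart from its group: Glul, a marker of the cells next to the central vein, stood at 172 CPM there, while replicates 2 and 3 had 3639 and 2353 CPM. Its 6 periportal markers summed to 1619 CPM, against 303 to 453 CPM in the other 2. Markers of other cells summed over their lists to at most 6.78 CPM for Kupffer cells, 22.2 for endothelial cells, 14.4 for stellate cells, 2.77 for lymphocytes, 47.3 for cholangiocytes and 246 for erythroid cells in any library. The lowest members lie in the same range, down to a mean of 4.13 CPM for Atg10.

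The promoters of the 30 members found in a RefSeq table (GRCm38.p6, 250 bases before to 50 after each start) were searched on both strands for 4 motifs of regulators known to act on autophagy genes. CACGTG, the E-box core of the motif that Tfeb and Tfe3 bind, was in 5 of these 30 members (Atg14, Atg3, Atg5, Atg7 and Bnip3), in 5 of their 35 promoters, and in 8.09% of the 27025 genes and 7.15% of the 32851 promoters in the table. The Atg7 window, chr6:114670846-114671145, lies inside the gene, whose annotated start at 114643097 was not searched. The Atg14 window, chr14:47568385-47568684 on the minus strand, also lies inside its gene, annotated from 47570649. The windows of Atg4b, Wipi1, Wipi2 and Fundc1, which held none of the motifs, lie inside their genes too. Their annotated starts were not searched. The longer form TCACGTGA, which contains CACGTG, was in Atg3 and in 1.12% of all genes (0.974% of promoters). TGACGTCA, the cyclic AMP response element, was in Atg5 and in 2.03% of all genes (1.79% of promoters), and GTAAACA, a forkhead motif, was in 0 members and in 4.05% of all genes (3.65% of promoters). Only these exact sequences were searched. Variants such as ATAAACA, which the Gabarapl1 window below holds, were not counted, so forkhead sites in the members are not excluded. The windows of 4 members are printed as examples, picked with their fasting results known. Bnip3 holds CACGTG, Map1lc3b and Gabarapl1 hold neither form, and the RNA of all of these rose in fasting. Atg3 holds the longer motif and did not pass the test in any comparison. Of the other members with CACGTG, Atg14 was called higher in fasted PC, and Atg5 and Atg7 were not called in fasting. A link between motif and response was not tested. Capitals mark CACGTG and TCACGTGA, at 108 bases before the start in Bnip3 and at 94 and 72 in Atg3. The windows lie at chr7:138909457-138909756 on the minus strand (Bnip3), chr16:45158579-45158878 on the plus strand (Atg3), chr8:121590188-121590487 on the plus strand (Map1lc3b) and chr6:129532942-129533241 on the plus strand (Gabarapl1).
Bnip3: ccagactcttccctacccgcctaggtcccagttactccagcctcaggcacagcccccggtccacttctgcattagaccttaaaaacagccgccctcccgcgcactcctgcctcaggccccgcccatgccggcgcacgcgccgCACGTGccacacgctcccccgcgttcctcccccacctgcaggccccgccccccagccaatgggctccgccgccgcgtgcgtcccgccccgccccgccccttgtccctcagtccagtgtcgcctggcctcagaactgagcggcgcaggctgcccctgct
Atg3: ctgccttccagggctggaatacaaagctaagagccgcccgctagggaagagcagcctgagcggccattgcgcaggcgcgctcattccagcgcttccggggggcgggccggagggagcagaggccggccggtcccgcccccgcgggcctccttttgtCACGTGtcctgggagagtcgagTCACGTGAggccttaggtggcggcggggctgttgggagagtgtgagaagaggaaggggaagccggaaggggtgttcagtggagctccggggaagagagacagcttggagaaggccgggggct
Map1lc3b: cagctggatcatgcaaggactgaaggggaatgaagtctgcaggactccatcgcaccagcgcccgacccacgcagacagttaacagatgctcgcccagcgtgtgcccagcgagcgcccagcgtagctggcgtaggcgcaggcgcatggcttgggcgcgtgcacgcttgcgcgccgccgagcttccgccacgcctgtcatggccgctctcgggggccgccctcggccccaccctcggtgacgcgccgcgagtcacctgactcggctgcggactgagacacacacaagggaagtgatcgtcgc
Gabarapl1: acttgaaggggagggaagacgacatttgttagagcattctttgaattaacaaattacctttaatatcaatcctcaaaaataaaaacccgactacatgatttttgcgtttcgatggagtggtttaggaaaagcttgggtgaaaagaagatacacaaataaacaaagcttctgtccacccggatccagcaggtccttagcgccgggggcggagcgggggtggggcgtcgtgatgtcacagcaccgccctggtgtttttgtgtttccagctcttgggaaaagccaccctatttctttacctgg

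Per length, the members covered a wide range of levels. Averaged over all 12 libraries, Bnip3 stood highest at 154 CPM per kb of merged exon, followed by Gabarapl1 at 144, Sqstm1 at 137 and Gabarap at 82.7, and Atg3 came next at 32.8. The lowest were Atg4d at 1.03 and Pik3r4 at 0.749 CPM per kb. Merged exon joins the exons of every annotated transcript of a gene, 7.26 kb for Atg4d and 9.66 kb for Pik3r4. It can exceed the length of the RNA present, and the order depends on it. The 4 highest are receptors or proteins of the GABARAP family, and the lowest are an LC3 protease and the regulatory subunit of the PI3-kinase. All members were at 1 CPM or more in every library, and the lowest count of any member in any library was 48.

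**Figure D1:**
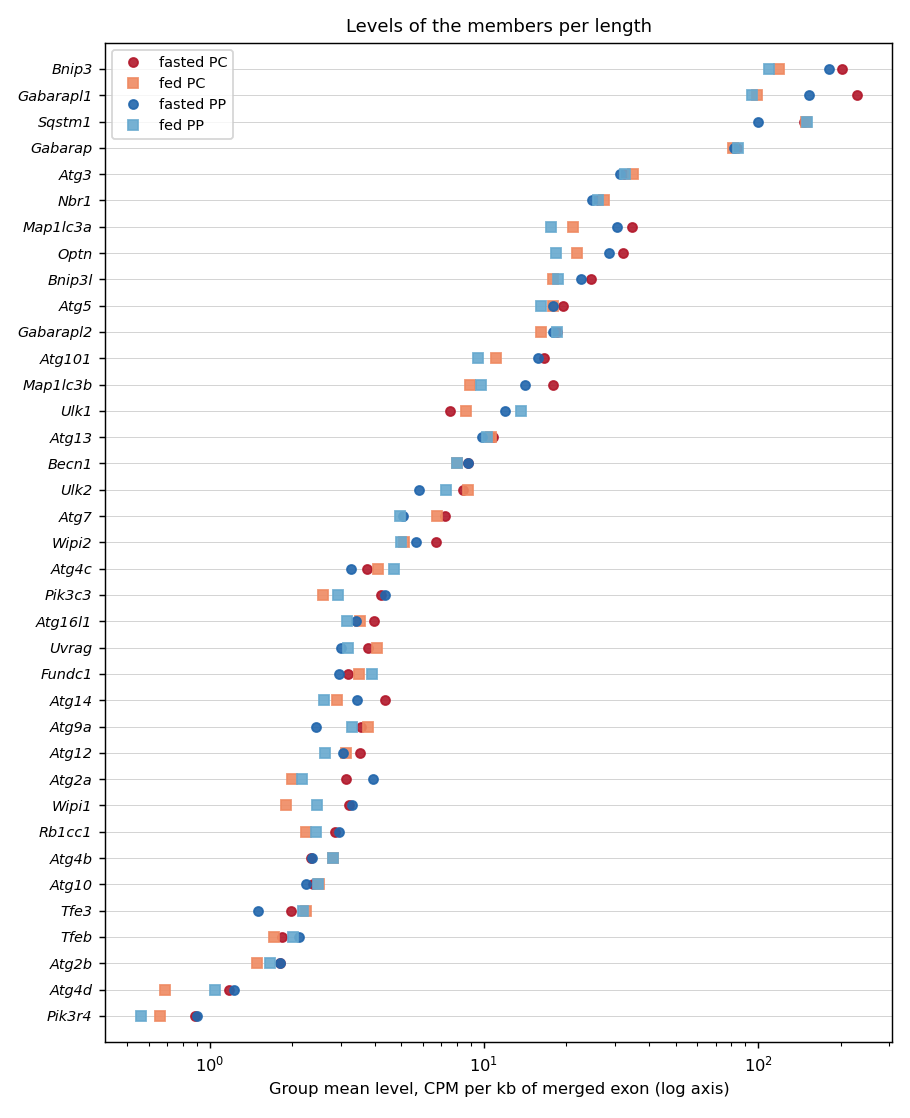
Mean level of each of the 37 members in the 4 groups (x axis: CPM per kb of merged exon, log axis; 1 row per gene, ordered by the mean over all libraries). Bnip3, Gabarapl1, Sqstm1 and Gabarap stand apart at the top, and Pik3r4 is lowest at 0.749 CPM per kb over all libraries.

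After the 24 h fast, more members rose than fell in both zones. In PC hepatocytes 13 of the 37 members were called higher in fasted than in fed mice and 0 lower (edgeR quasi-likelihood test, Benjamini-Hochberg adjusted p under 0.05), which is 35.1% of the members; among all tested genes 21.4% were called in either direction, 11.1% higher and 10.2% lower. In PP hepatocytes 7 members were called higher and 2 lower, 24.3% of the members, where 17.9% of all genes were called, 8.39% higher and 9.5% lower. With the zones averaged, 14 were higher and 3 lower, 45.9% against 35.3% of all genes, of which 17.8% were higher and 17.5% lower. The median log2 fold change of the members was 0.17 in PC and 0.12 in PP, against a median of 0.0042 and 0.00488 over all genes. Expressed as a sum, the 37 members took 2994 to 3085 CPM in fasted PC libraries against 2321 to 2468 CPM in fed PC libraries, and 2445 to 2738 CPM in fasted PP libraries against 2126 to 2466 CPM in fed PP libraries. The sum depends mostly on a few abundant members and does not show that the members rose as a set. From fed to fasted, mean Bnip3 went from 269 to 460 CPM in PC and from 249 to 413 CPM in PP. Mean Gabarapl1 went from 199 to 461 CPM in PC and from 191 to 310 CPM in PP. Sqstm1 went the other way in PP, from 505 to 336 CPM. In bulk libraries such as these, fewer cells of a type and less RNA per cell cannot be told apart.

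All roles but the transcription factors had at least 1 member called higher, from initiation to cargo capture. The members called higher in both zones were Pik3c3, Atg2a, Map1lc3a, Map1lc3b, Optn and Bnip3, 6 in all. Another 7 were called higher in PC and not in PP (Rb1cc1, Atg14, Wipi1, Wipi2, Atg4d, Gabarapl1 and Bnip3l), and 1 in PP and not in PC (Atg101); the difference between zones did not pass for any of these 8 (edgeR interaction term). Counting sign alone, 22 members had a log2 fold change above 0 in both zones, 12 below 0 in both, and 3 had opposite signs. These counts across zones were not made over all genes. Whether the members went together in the 2 zones more often than other genes was not tested. The 2 zones do not share libraries. Without fasted PC replicate 1, 11 members were called higher in PC and Atg4b was called lower. Regardless of the test, 15 members lay higher in all fasted PC libraries than in all fed PC libraries, 0 lower, where 41.7% of all genes were separate, 21.5% higher and 20.2% lower. In PP these counts were 13 and 2, where 34.6% of all genes were separate, 16.8% higher and 17.8% lower.

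**Figure D2:**
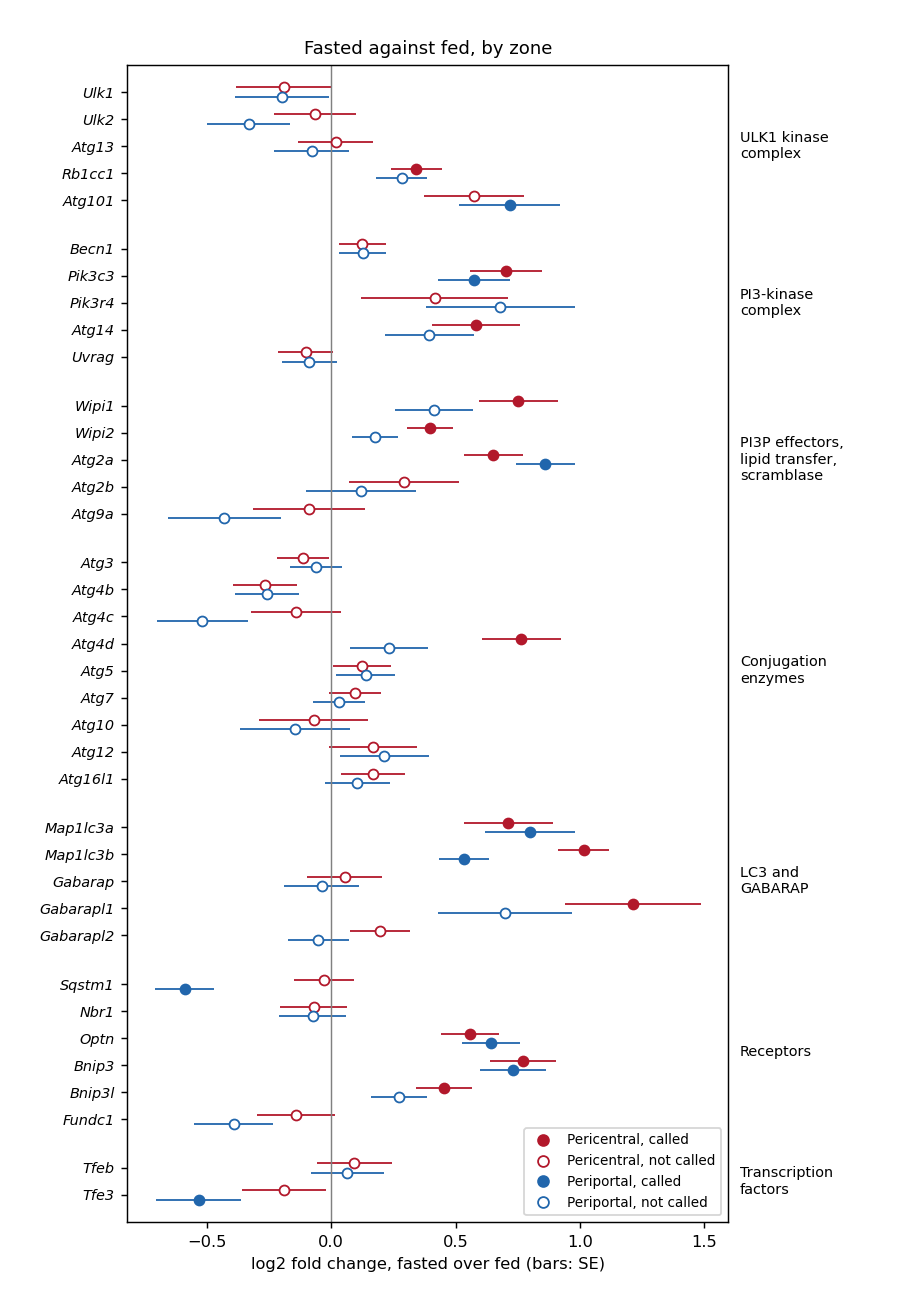
Log2 fold change of fasted over fed hepatocytes for each member (x axis; bars: SE) in PC (red, upper point) and PP (blue, lower point), grouped by role. Filled points passed the test; the 13 filled PC points all lie above 0, and the filled PP points below 0 are Sqstm1 and Tfe3.

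LC3 and GABARAP proteins, the ubiquitin-like proteins conjugated to the autophagosome membrane, held the 2 largest increases in PC, those of Gabarapl1 and Map1lc3b. Map1lc3b (LC3B, ENSMUSG00000031812, chr8:121590361-121598760, plus strand, GRCm38) stood at 140, 135 and 129 CPM in fasted PC libraries, against 71.7, 65.3 and 63.1 CPM in fed PC libraries. In PP it stood at 109, 109 and 101 CPM in fasted libraries, against 81.9, 72.9 and 65.5 CPM in fed libraries. The groups did not overlap in either zone, and the log2 fold change was 1.01 ± 0.10 in PC (edgeR adjusted p = 7.2e-05), a 2.02-fold increase, and 0.53 ± 0.10 in PP (edgeR adjusted p = 0.0035), a 1.45-fold increase. Gabarapl1 (chr6:129533160-129542346, plus strand), a GABARAP protein, stood at 492, 474 and 418 CPM in fasted PC libraries, against 250, 185 and 162 CPM in fed PC libraries. All 3 fasted PC libraries lay above the fed PC ones, with a difference on the log2 scale of 1.21 ± 0.27 (edgeR adjusted p = 0.0087), or 2.32-fold. Its PP values overlapped, at 331, 228 and 372 CPM in fasted libraries against 268, 184 and 121 CPM in fed libraries, and the log2 fold change of 0.70 ± 0.27 did not pass (edgeR adjusted p = 0.097).

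Map1lc3a (LC3A), a close relative of LC3B, stood at 42.6, 41.0 and 39.3 CPM in fasted PC libraries, against 27, 26.7 and 21.3 CPM in fed PC libraries, and at 45.1, 29.2 and 33.8 CPM in fasted PP libraries, against 25.2, 20.6 and 16.1 CPM in fed PP libraries. Its groups were separate in both zones, and it rose by 0.71 ± 0.18 in PC (edgeR adjusted p = 0.014) and by 0.80 ± 0.18 in PP (edgeR adjusted p = 0.0094); the PC call ended without fed PC replicate 3 (edgeR adjusted p = 0.067). In this group of 5 genes, 3 were called in PC and 2 in PP. That is 60% and 40%, against 21.4% of all genes in PC and 17.9% in PP. The other 2 of the 5 genes in this group did not pass. Gabarap ranged from 121 to 182 CPM over the 12 libraries, with log2 fold changes of 0.06 ± 0.15 in PC and -0.04 ± 0.15 in PP. Gabarapl2 ranged from 34.8 to 47.5 CPM, with 0.20 ± 0.12 in PC and -0.05 ± 0.12 in PP. Near-identical copies bear on these values: Map1lc3b shares at least 95% identity over at least 300 bases with several pseudogenes in the counted set, among them Gm6054, Gm6055, Gm5612 and Gm12727, so its level is uncertain. Gabarapl1 shares 570 exonic bases with 1700101I11Rik on the opposite strand, and the library kit does not mark strand, so the reads of such pairs cannot be told apart.

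Of the 6 cargo receptors, Optn and Bnip3 rose in both zones, Bnip3l rose in PC, and Sqstm1 fell in PP. That is 50% called in each zone, against 21.4% of all genes in PC and 17.9% in PP. Bnip3 (chr7:138890836-138909519, minus strand), a receptor on the outer mitochondrial membrane, stood at 492, 436 and 452 CPM in fasted PC libraries, against 258, 282 and 268 CPM in fed PC libraries. Its PP values were 472, 436 and 331 CPM in fasted libraries, against 272, 244 and 231 CPM in fed libraries. The fasted libraries lay above the fed libraries of the same zone without overlap, by 0.77 ± 0.13 in PC (edgeR adjusted p = 0.0017) and by 0.73 ± 0.13 in PP (edgeR adjusted p = 0.0028). Bnip3 also has a near-identical pseudogene in the counted set, Gm16439, and shares 504 exonic bases with the antisense gene Gm45507, so its level is uncertain. Its relative Bnip3l (NIX), which removes mitochondria from maturing red cells among other roles, stood at 83, 98.3 and 103 CPM in fasted PC libraries, against 73.1, 69.9 and 64.5 CPM in fed PC libraries, and was higher by 0.45 ± 0.11 (edgeR adjusted p = 0.013). That call ended without fasted PC replicate 3 or fed PC replicate 3 (edgeR adjusted p up to 0.062). In PP, Bnip3l stood at 90.0, 89.9 and 82.1 CPM in fasted libraries against 71.9, 80.8 and 64.0 CPM in fed libraries, a log2 fold change of 0.27 ± 0.11 that did not pass (edgeR adjusted p = 0.11). Summed over their lists, erythroid markers ranged from 4.48 to 246 CPM in fasted PC and from 11.7 to 30.9 CPM in fed PC libraries, and their part in the Bnip3l value was not tested. Bnip3l likewise has a pseudogene copy, Bnip3l-ps, in the counted set.

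Optn, optineurin, a receptor of ubiquitin-tagged cargo, stood at 127, 113 and 122 CPM in fasted PC libraries, against 81.1, 77.1 and 87.4 CPM in fed PC libraries. In PP its values were 88.9, 121 and 113 CPM in fasted libraries, against 66.2, 73.5 and 66.7 CPM in fed libraries. The groups were separate in both zones, with log2 fold changes of 0.56 ± 0.12 in PC (edgeR adjusted p = 0.0051) and 0.64 ± 0.12 in PP (edgeR adjusted p = 0.0028). Sqstm1 (p62, chr11:50199366-50210827, minus strand), the best known receptor of ubiquitinated aggregates, was lower in fasted PP. It stood at 366, 296 and 346 CPM in fasted PP libraries, against 451, 559 and 507 CPM in fed PP libraries, and fell by 0.59 ± 0.12 in log2 terms, or 1.5-fold (edgeR adjusted p = 0.0055). In PC its values overlapped, at 447, 512 and 525 CPM in fasted libraries against 501, 488 and 525 CPM in fed libraries, with a log2 fold change of -0.03 ± 0.12 (95% interval -0.29 to 0.23). Sqstm1 shares 580 exonic bases with Mrnip on the opposite strand. The other receptors did not pass: Nbr1, a ubiquitin receptor related to Sqstm1, ranged from 159 to 211 CPM over all libraries, and Fundc1, a mitochondrial receptor, from 6.49 to 10.4 CPM, with log2 fold changes of -0.14 ± 0.16 in PC and -0.39 ± 0.16 in PP (edgeR adjusted p = 0.11 in PP).

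**Figure D3:**
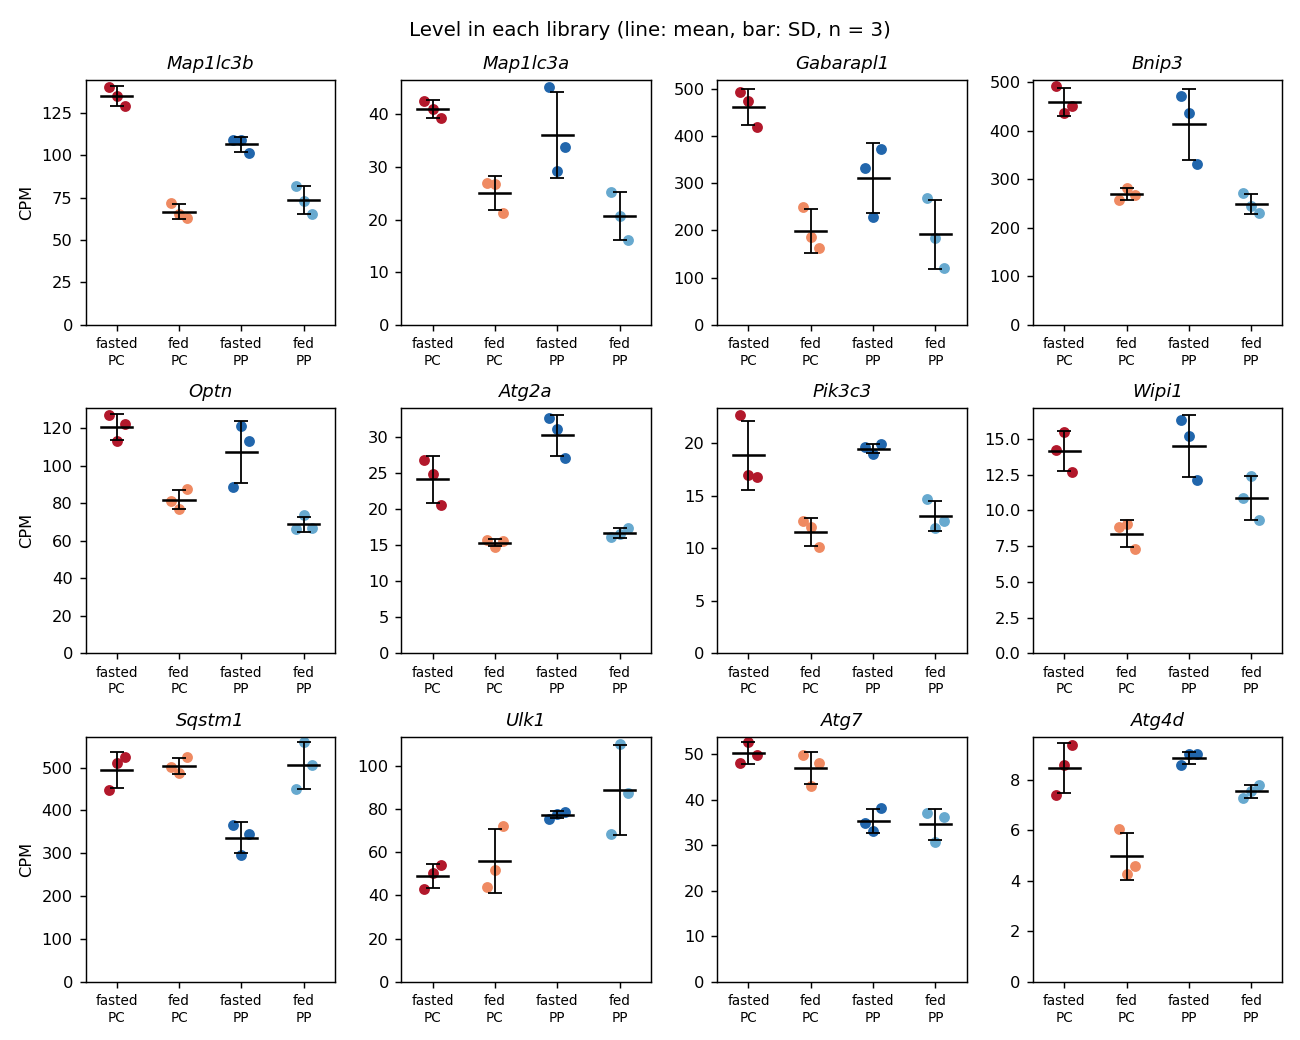
Level of 12 members in each library (y axis: CPM from 0; points: libraries; line and bar: mean and SD of 3), with fasted left of fed in PC (reds) and then in PP (blues). Map1lc3b, Map1lc3a, Bnip3, Optn, Atg2a and Pik3c3 are separate between fasted and fed in both zones, Sqstm1 is low in fasted PP at 296 to 366 CPM, and Ulk1 and Atg7 differ between zones.

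In the PI3-kinase complex 2 of 5 members rose in PC and 1 in PP. This is 40% in PC, where 21.4% of all genes were called, and 20% in PP, near the 17.9% of all genes. Pik3c3 (Vps34), its catalytic subunit, which makes PI3P, stood at 22.7, 17 and 16.8 CPM in fasted PC libraries, against 12.6, 12.0 and 10.1 CPM in fed PC libraries. Its PP values were 19.6, 19.0 and 19.9 CPM in fasted libraries, against 14.7, 11.9 and 12.6 CPM in fed libraries. It was higher without overlap in both zones, by 0.70 ± 0.15 in PC (edgeR adjusted p = 0.0048) and by 0.57 ± 0.14 in PP (edgeR adjusted p = 0.016); the PP call ended without fed PP replicate 2 or 3 (edgeR adjusted p up to 0.066). Atg14, the subunit that directs the complex to sites of autophagosome formation, stood at 18.6, 19.4 and 18.7 CPM in fasted PC libraries, against 15.6, 11.1 and 11 CPM in fed PC libraries. Its log2 fold change was 0.58 ± 0.18 in PC (edgeR adjusted p = 0.033). This did not hold without any 1 of the 3 fasted PC libraries, fed PC 2 or 3, or fed PP 2 (edgeR adjusted p up to 0.15). In PP it stood at 13.5, 13.7 and 17.3 CPM in fasted libraries against 13.5, 11.5 and 8.94 CPM in fed libraries, and 0.39 ± 0.18 did not pass (edgeR adjusted p = 0.15).

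Becn1 (beclin 1), the scaffold of the same complex, had the smallest ratio of highest to lowest library of the members, 1.22, at 53.7 to 65.8 CPM over all 12 libraries, with a log2 fold change of 0.13 ± 0.10 in each zone (95% interval -0.08 to 0.33 in each). Becn1 shares 3104 of its 7065 exonic bases with Cntd1 on the opposite strand. Pik3r4 (Vps15), the regulatory subunit, stood at 10.9, 6.20 and 8.42 CPM in fasted PC libraries and 7.18, 7.51 and 4.36 CPM in fed PC libraries. In PP it stood at 10.5, 8.70 and 6.84 CPM in fasted libraries and 3.37, 6.24 and 6.66 CPM in fed libraries, and its log2 fold changes of 0.42 ± 0.30 in PC and 0.68 ± 0.30 in PP did not pass (edgeR adjusted p = 0.35 in PC and 0.14 in PP). Uvrag, which takes the place of Atg14 in a form of the complex that acts on endosomes, did not pass in fasting, at -0.10 ± 0.11 in PC and -0.09 ± 0.11 in PP.

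PI3P effectors, lipid transfer proteins and the scramblase Atg9a had 3 of 5 members higher in PC and 1 in PP. This is 60% in PC, where 21.4% of all genes were called, and 20% in PP, near the 17.9% of all genes. Atg2a, which moves lipid into the growing membrane, stood at 26.9, 24.9 and 20.6 CPM in fasted PC libraries, against 15.7, 14.8 and 15.6 CPM in fed PC libraries. In PP it stood at 32.6, 31.1 and 27.1 CPM in fasted libraries, against 16.1, 16.5 and 17.4 CPM in fed libraries. Fasted libraries were above fed libraries without overlap, by 0.65 ± 0.12 in PC (edgeR adjusted p = 0.0024) and by 0.86 ± 0.12 in PP (edgeR adjusted p = 0.00058). Its paralog Atg2b, with the same activity, overlapped between fasted and fed at 16.3 to 31.6 CPM over all libraries, with log2 fold changes of 0.29 ± 0.22 in PC and 0.12 ± 0.22 in PP. Wipi1, a PI3P-binding protein, stood at 14.2, 15.5 and 12.7 CPM in fasted PC libraries, against 8.81, 9.05 and 7.30 CPM in fed PC libraries, and was higher by 0.75 ± 0.16 (edgeR adjusted p = 0.0055). In PP it overlapped narrowly, at 16.3, 15.2 and 12.1 CPM in fasted libraries against 10.9, 12.4 and 9.36 CPM in fed libraries, a difference on the log2 scale of 0.41 ± 0.16 (edgeR adjusted p = 0.09).

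Wipi2, the PI3P-binding protein that brings Atg16l1 to the membrane, stood at 68.0, 72.9 and 71.1 CPM in fasted PC libraries, against 59.1, 51.2 and 50.7 CPM in fed PC libraries. The increase of 0.40 ± 0.09 (edgeR adjusted p = 0.0098) did not pass without fed PC replicate 2 (edgeR adjusted p = 0.059). In PP, Wipi2 stood at 57.7, 62.1 and 59.1 CPM in fasted libraries against 54.2, 55.6 and 48.5 CPM in fed libraries, separate by a small margin, with 0.18 ± 0.09 (edgeR adjusted p = 0.22). Atg9a, the membrane protein that seeds the autophagosome, did not pass, at 11.9 to 26.3 CPM over all libraries and log2 fold changes of -0.09 ± 0.22 in PC and -0.43 ± 0.23 in PP.

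The ULK1 kinase complex, which starts autophagy, had 1 of 5 members higher in each zone, or 20%, near the 21.4% of all genes called in PC and the 17.9% called in PP. Rb1cc1 (FIP200), its scaffold, stood at 43.5, 38.1 and 44.0 CPM in fasted PC libraries, against 35.1, 33.2 and 30.7 CPM in fed PC libraries, a difference on the log2 scale of 0.34 ± 0.10 (edgeR adjusted p = 0.03). It did not pass when any of fasted PC 1 or 3, fasted PP 2, fed PC 2 or 3, or fed PP 2 was left out (edgeR adjusted p up to 0.13), and with no filter on low counts (edgeR adjusted p = 0.072). In PP its values were 42.1, 41.6 and 46.5 CPM in fasted libraries against 38.0, 36.3 and 32.6 CPM in fed libraries, also separate, with 0.28 ± 0.10 (edgeR adjusted p = 0.073). Rb1cc1 shares 95.6% identity over 1324 bases with the pseudogene Gm13961 in the counted set, so its level is uncertain. Atg101, which stabilises Atg13, stood at 35.4, 21.9 and 17.8 CPM in fasted PP libraries, against 16.8, 13.6 and 15.2 CPM in fed PP libraries, and was higher by 0.72 ± 0.20 (edgeR adjusted p = 0.027). Replicate 1 was the highest fasted PP library by a wide margin, and the call ended without it, and without fed PP replicate 2 or 3 (edgeR adjusted p up to 0.091, log2 fold change down to 0.41). In PC, Atg101 stood at 28.1, 25.7 and 25.2 CPM in fasted libraries against 19.0, 17.4 and 16.6 CPM in fed libraries, separate but not past the test at 0.58 ± 0.20 (edgeR adjusted p = 0.059).

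The kinases themselves did not pass in fasting. Ulk1 had log2 fold changes of -0.19 ± 0.19 in PC and -0.20 ± 0.19 in PP, and Ulk2 of -0.07 ± 0.17 in PC and -0.33 ± 0.17 in PP (edgeR adjusted p = 0.19 in PP). Atg13, the subunit that mTORC1 phosphorylates with Ulk1, ranged from 35.9 to 54.5 CPM over all libraries, with 0.02 ± 0.15 in PC and -0.08 ± 0.15 in PP.

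Among the 9 conjugation enzymes, 1 rose in PC and 0 were called in PP, which is 11.1% and 0%, below the shares of all genes (21.4% in PC and 17.9% in PP). Atg4d, a protease of the family that trims LC3 and GABARAP proteins, stood at 7.42, 8.61 and 9.37 CPM in fasted PC libraries, against 6.04, 4.28 and 4.60 CPM in fed PC libraries, and was higher by 0.76 ± 0.16 (edgeR adjusted p = 0.0051). In PP it was separate but not past the test, at 8.58, 9.01 and 9.03 CPM in fasted libraries against 7.29, 7.56 and 7.80 CPM in fed libraries (0.23 ± 0.16, edgeR adjusted p = 0.34). Atg4d shares 1405 exonic bases with Kri1 on the opposite strand. Its relatives had log2 fold changes below 0. Atg4b, the most active LC3 protease, stood at 22.8, 17 and 18.2 CPM in fasted PC libraries against 24.3, 21.4 and 24.1 CPM in fed PC libraries, and at 21.1, 19.0 and 18.3 CPM in fasted PP libraries against 25.4, 23.6 and 20.9 CPM in fed PP libraries. Fasted and fed values of Atg4b overlapped in both zones, and it passed with the zones averaged (-0.26 ± 0.09, edgeR adjusted p = 0.041) but not with no filter on low counts (edgeR adjusted p = 0.071).

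The averaged Atg4b call also ended without 8 of the 12 libraries in turn (edgeR adjusted p up to 0.098): fasted PC 2 and 3, fasted PP 2 and 3, fed PC 1 and 3, and fed PP 1 and 2. Without fasted PC replicate 1 it passed in PC alone, at -0.42 (edgeR adjusted p = 0.033). Atg4c, of the same family, stood at 10.9, 14.4 and 12.2 CPM in fasted PC libraries and 13.5, 14.3 and 13.5 CPM in fed PC libraries. In PP, Atg4c stood at 9.28, 9.40 and 14.3 CPM in fasted libraries and 15.6, 13.4 and 18.3 CPM in fed libraries, and its log2 fold change of -0.52 ± 0.18 did not pass (edgeR adjusted p = 0.068). Atg3 and Atg10, the E2-like enzymes, and Atg5, Atg12 and Atg16l1, which form the E3-like complex, did not pass, with log2 fold changes between -0.15 and 0.21 in the 2 zones. Atg7, the E1-like enzyme that activates both branches, did not pass in fasting either, at 0.10 ± 0.10 in PC and 0.03 ± 0.10 in PP.

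The transcription factors Tfeb and Tfe3, whose activity is known to depend on their location in the cell, were not called higher. Tfeb ranged from 8.52 to 12.6 CPM over all libraries, with log2 fold changes of 0.09 ± 0.15 in PC (95% interval -0.23 to 0.42) and 0.07 ± 0.15 in PP (95% interval -0.26 to 0.39). Tfe3 stood at 13.1, 12.0 and 16.7 CPM in fasted PP libraries and 24.1, 16.6 and 19.7 CPM in fed PP libraries, with the highest fasted value just above the lowest fed value, and was called lower at -0.53 ± 0.17 (edgeR adjusted p = 0.046). That call ended without 8 of the 12 libraries in turn (all but fasted PC 1 and 2, fasted PP 3 and fed PP 2; edgeR adjusted p up to 0.18) and with edgeR's RLE scaling (edgeR adjusted p = 0.051). In PC, Tfe3 stood at 15.0, 21.1 and 18.6 CPM in fasted libraries and 21.4, 20.6 and 20.4 CPM in fed libraries (-0.19 ± 0.17, edgeR adjusted p = 0.46). With the zones averaged its log2 fold change was -0.36 ± 0.12 (edgeR adjusted p = 0.032), and that call also ended without 8 of the libraries in turn (edgeR adjusted p up to 0.074): all 3 fed PC libraries, fasted PC 1 and 3, fasted PP 1 and 2, and fed PP 1.

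Genes around the core were read from 8 lists of other members of the pathway. Of 17 other autophagy receptors, 5 rose and 0 fell in fasted PC, while 2 rose and 1 fell in fasted PP. Calcoco1, a receptor for parts of the endoplasmic reticulum and Golgi, stood at 47.7, 39.7 and 42.6 CPM in fasted PC libraries, against 13.8, 10 and 10.2 CPM in fed PC libraries, higher by 1.93 ± 0.16 (edgeR adjusted p = 2.3e-05). The highest log2 fold change among the core members was the 1.21 of Gabarapl1. In PP Calcoco1 was higher by 1.55 ± 0.16 (edgeR adjusted p = 0.00012). Wdfy3 (Alfy), which links aggregates to the autophagy machinery, was higher by 0.97 ± 0.19 in PC and by 0.78 ± 0.18 in PP. Stbd1, the glycogen-binding receptor, was lower in fasted PP, at -0.80 ± 0.17 (edgeR adjusted p = 0.0064).

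Of 30 lysosomal proteins, 9 rose and 1 fell in fasted PC, while 3 rose and 0 fell in fasted PP, 10% against 17.9% of all genes. Npc1, which exports cholesterol from lysosomes, led both zones, by 1.00 ± 0.12 in PC (edgeR adjusted p = 0.00019) and by 0.96 ± 0.12 in PP (edgeR adjusted p = 0.00032). In PC it was followed by Gaa, acid glucosidase (0.76 ± 0.14), and the peptidase Ctsz (0.59 ± 0.10), and in PP by the protease Ctsl (0.58 ± 0.12) and the sialidase Neu1 (0.49 ± 0.11). Sgsh, sulfamidase, was lower in PC (-1.06 ± 0.25, edgeR adjusted p = 0.0099). Of 15 genes of autophagosome-lysosome fusion, 3 were higher in PC and 2 in PP, with 0 lower, and Rilp, a Rab effector on lysosomes, passed in both (0.42 ± 0.13 in each). Among 26 tested genes of mTORC1 and nutrient sensing, 6 were higher and 2 lower in PC, and 4 higher and 2 lower in PP. Fnip1 (1.44 ± 0.20 in PC, 1.37 ± 0.20 in PP) and Flcn (1.18 ± 0.27 in PC, 0.94 ± 0.27 in PP), which form the folliculin complex, and Sesn2, a leucine sensor (1.29 ± 0.17 in PC, 1.46 ± 0.17 in PP), rose in both. Those called lower in PC were Lamtor5 (-2.237 ± 0.545) and Rraga (-0.4586 ± 0.104). Those called lower in PP were Depdc5 (-0.4816 ± 0.149) and Nprl2 (-0.4526 ± 0.141).

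Of 13 tested transcriptional regulators, 4 were higher in fasted PC and 5 in fasted PP, with 0 lower, led by Ppargc1a (1.48 ± 0.40 in PC, 1.59 ± 0.39 in PP), Crtc2 (1.31 ± 0.13 in PC, 1.12 ± 0.13 in PP) and Foxo1 (1.23 ± 0.23 in PC, 1.17 ± 0.23 in PP). Of 7 genes of AMPK, its subunits and the upstream kinase Stk11 (LKB1), 0 were called in fasting within either zone. Of 11 tested partners of the initiation complexes, 1 was higher and 2 lower in PC, and 1 higher and 1 lower in PP: Wdr45, a PI3P-binding protein, rose (0.70 ± 0.13 in PC, 0.46 ± 0.13 in PP), and the scramblase Tmem41b fell (-0.83 ± 0.11 in PC, -0.71 ± 0.11 in PP). Ambra1, another of these partners, was called lower in PC (-0.5727 ± 0.115). Of 4 other conjugation genes, 2 were lower in PC and 1 in PP, among them the interferon-induced Irgm1 in both (-1.03 ± 0.20 in PC, -1.13 ± 0.20 in PP). The share of each list called in PC was 29.4% for receptors, 33.3% for lysosomal proteins, 20% for fusion, 30.8% for nutrient sensing, 30.8% for regulators, 27.3% for initiation partners, 50% for other conjugation genes (all lower) and 0% for AMPK, against 21.4% of all genes. In PP it was 17.6% for receptors, 10% for lysosomal proteins, 13.3% for fusion, 23.1% for nutrient sensing, 38.5% for regulators, 18.2% for initiation partners, 25% for other conjugation genes and 0% for AMPK, against 17.9% of all genes.

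Between the zones, few core members differed. In fasted mice 2 of 37 members were called higher in PC and 0 lower, 5.41% of the members where 6.4% of all genes were called, 3.35% higher and 3.05% lower. In fed mice 1 was called higher in PC and 0 lower, 2.7% where 4.72% of all genes were called, 2.24% higher and 2.47% lower. With feeding states averaged, 4 were higher in PC and 1 lower, 13.5% against 13% of all genes, of which 6.47% were higher and 6.5% lower. These shares of called members are near those of all genes. Regardless of the test, 10 members lay higher and 3 lower in all fasted PC than in all fasted PP libraries, where 22% of all genes were separate, 11.4% higher and 10.6% lower. In fed mice 3 lay higher and 3 lower, where 26% were separate, 12.9% higher and 13.1% lower. Of the 37 members, the separate share was thus above that of all genes in fasted mice, mostly higher in PC, and below it in fed mice. Whether the members differ from other genes in this was not tested. The count of members called in fasted mice was 2 without fasted PC replicate 1, and 0 without fasted PC 2 or without fasted PP 2. It was 1 without fasted PC 3, 3 without any 1 of fed PC 3, fed PP 1 and fed PP 2, and 4 without fed PP 3. The count called in fed mice was 0 without fed PP replicate 2 and 2 without fasted PC replicate 1 or fed PP replicate 1. DESeq2 called 5 members in fasted mice and 3 in fed mice, and in fed mice it also called more of all genes than edgeR did. Its share of all genes in fasted mice is not given here, so the 5 cannot be read as particular to the members.

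Other measures also moved with zone. Mitochondrially encoded genes took 6.3% to 7.44% of counts in fasted PC libraries against 8.88% to 9.73% in fasted PP libraries, and 7.16% to 7.92% in fed PC against 8.17% to 9.09% in fed PP libraries. The 5 cholangiocyte markers summed to 13.6 to 25.1 CPM in fasted PC against 33.7 to 37.4 CPM in fasted PP libraries, and to 23.7 to 27.9 CPM in fed PC against 36.1 to 47.3 CPM in fed PP libraries, and 0 of the 5 were at 0 in every library: Krt19 and Epcam were under 1 CPM throughout, and Krt7 reached 19.7 CPM. Of the 3 that were tested, 2 (Spp1 and Sox9) were called lower in PC in fasted mice and 1 (Sox9) in fed mice. Their part in the zone results was not tested.

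**Figure D4:**
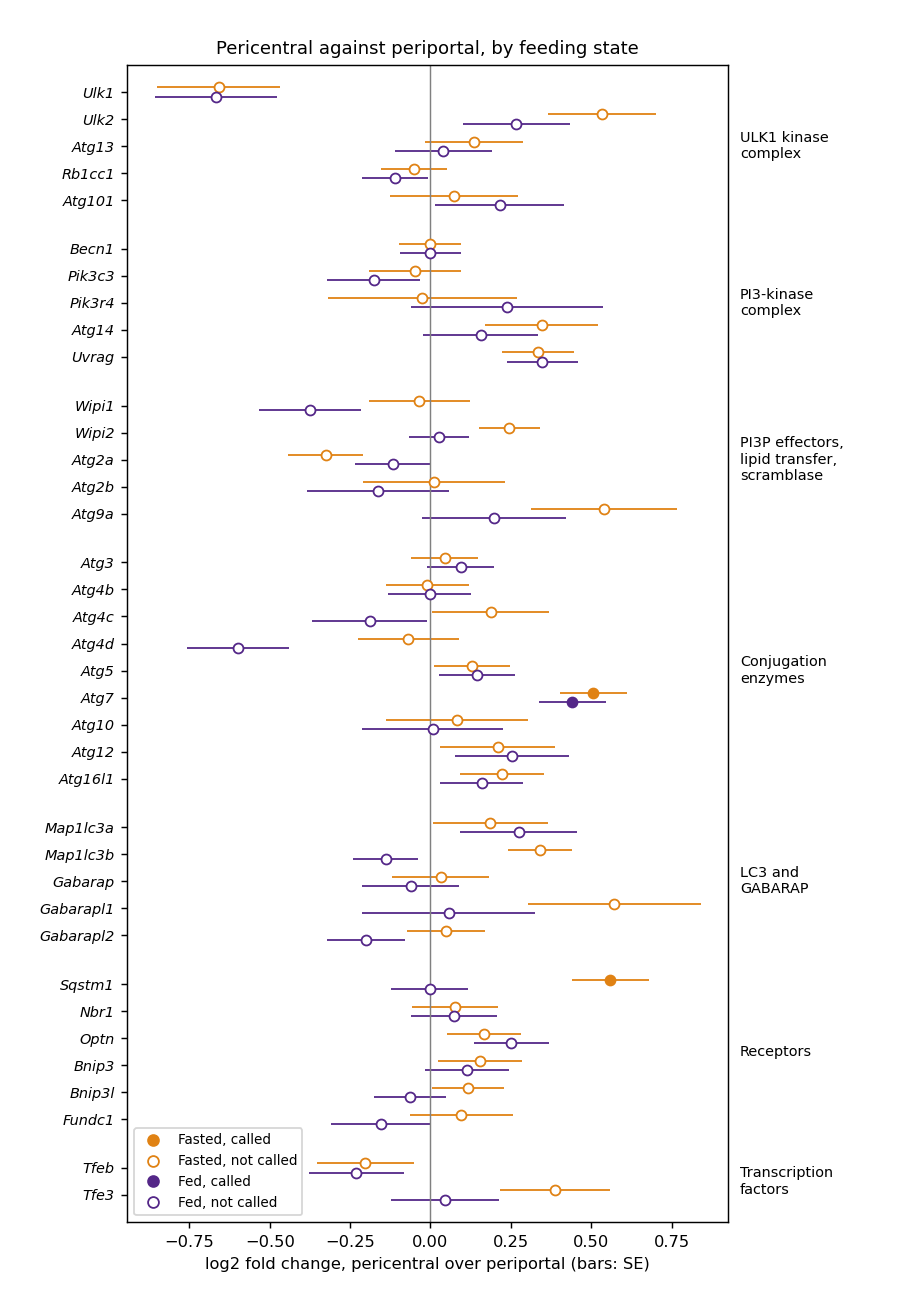
Log2 fold change of PC over PP for each member (x axis; bars: SE) in fasted mice (orange, upper point) and fed mice (purple, lower point), grouped by role. Filled points passed the test: Atg7 in both feeding states and Sqstm1 in fasted mice; Ulk1 lies furthest to the left in both.

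Atg7 was the only member called between zones in both feeding states. Atg7 (chr6:114643097-114860614, plus strand) stood at 48.1, 52.7 and 49.8 CPM in fasted PC libraries, against 34.9, 33.0 and 38.1 CPM in fasted PP libraries. In fed mice it stood at 49.8, 42.9 and 48.1 CPM in PC libraries, against 37.0, 30.6 and 36.1 CPM in PP libraries. All PC libraries lay above all PP libraries, by 0.51 ± 0.10 in fasted mice (edgeR adjusted p = 0.012), 0.44 ± 0.10 in fed mice (edgeR adjusted p = 0.029) and 0.47 ± 0.07 averaged (edgeR adjusted p = 0.00097). The averaged call held in all 12 fits that left out 1 library. Within fasted mice the call was lost on leaving out fasted PC 2 or fasted PP 2 (edgeR adjusted p up to 0.061), and within fed mice on leaving out fed PC 1, fed PC 3 or fed PP 2 (edgeR adjusted p up to 0.12).

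Ulk1 (chr5:110784488-110810097, minus strand), the initiating kinase, was lower in PC. It stood at 42.9, 50.1 and 53.9 CPM in fasted PC libraries, against 75.5, 77.8 and 78.7 CPM in fasted PP libraries, with no overlap. In fed mice it stood at 43.9, 51.5 and 72.3 CPM in PC libraries, against 68.5, 110 and 87.5 CPM in PP libraries, where 1 PC library reached into the PP range. The difference passed with feeding states averaged (-0.66 ± 0.13, edgeR adjusted p = 0.0058, 1.58-fold lower in PC) and in all 12 fits that left out 1 library. Within a feeding state it did not pass, at -0.66 ± 0.19 in fasted mice (edgeR adjusted p = 0.064) and -0.67 ± 0.19 in fed mice (edgeR adjusted p = 0.071), though it did with DESeq2 (adjusted p = 0.019 in fasted and 0.024 in fed mice). On leaving out fed PC 3 or fed PP 1 it passed in both states, and on leaving out fed PP 2 also in fasted mice (edgeR adjusted p down to 0.034 in fasted and 0.021 in fed mice).

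Its paralog Ulk2, a kinase with overlapping function, was higher in PC. Ulk2 stood at 44.8, 55.7 and 49.9 CPM in fasted PC libraries, against 34.0, 31.7 and 38.2 CPM in fasted PP libraries, and at 53.3, 60.4 and 43.6 CPM in fed PC libraries, against 50.4, 47.7 and 32.6 CPM in fed PP libraries. The zones were separate in fasted mice and overlapped in fed mice, and the averaged difference was 0.40 ± 0.12 (edgeR adjusted p = 0.041). That call ended without 8 of the 12 libraries in turn (edgeR adjusted p up to 0.11): fasted PC 2 and 3, fasted PP 1 and 2, fed PC 1 and 2, and fed PP 2 and 3. Uvrag stood at 33.0, 32.3 and 37.1 CPM in fasted PC libraries, against 28.6, 24.2 and 28.5 CPM in fasted PP libraries, and at 33.1, 38.4 and 38.5 CPM in fed PC libraries, against 26.6, 28.7 and 31.0 CPM in fed PP libraries. It was separate between zones in both states, and higher in PC by 0.34 ± 0.08 averaged (edgeR adjusted p = 0.012), a call held in all 12 fits that left out 1 library. Uvrag shares 1589 exonic bases with the antisense gene Gm45187.

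Sqstm1 was higher in PC than in PP after fasting, by 0.56 ± 0.12 (edgeR adjusted p = 0.015), with 495 ± 42.0 CPM in fasted PC and 336 ± 36.2 CPM in fasted PP (SD, n = 3 each). In fed mice the log2 fold change was near 0, with 505 ± 18.8 CPM in PC and 505 ± 54.0 CPM in PP (SD, n = 3 each). The call in fasted mice was lost on leaving out fasted PC 2, fasted PC 3 or fasted PP 2 (edgeR adjusted p up to 0.064). The averaged difference, 0.28 ± 0.09 (edgeR adjusted p = 0.048), ended without 9 of the 12 libraries in turn (all but fasted PC 1, fasted PP 1 and fed PP 2; edgeR adjusted p up to 0.11) and with no filter on low counts (edgeR adjusted p = 0.064). Atg4d in fed mice was lower in PC without overlap, but at -0.60 ± 0.16 it did not pass (edgeR adjusted p = 0.051), and it passed with DESeq2 (adjusted p = 0.027) and on leaving out fasted PC replicate 1 or fed PC replicate 1 (edgeR adjusted p down to 0.028). In fasted mice the Gabarapl1 libraries of PC lay above those of PP, and Atg2a libraries of PC below those of PP, at 0.57 ± 0.27 and -0.33 ± 0.12, without passing (edgeR adjusted p = 0.27 and 0.14).

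Of the surrounding lists, lysosomal proteins had 6 of 30 members lower in PC and 0 higher with feeding states averaged, 20% where 6.5% of all genes were lower, among them the glycosidases Gusb (-0.75 ± 0.11) and Glb1 (-0.49 ± 0.13). Gusb passed in fasted mice (-0.86 ± 0.16, edgeR adjusted p = 0.007) and in fed mice (-0.64 ± 0.16, edgeR adjusted p = 0.038). Among other receptors, Tex264, a receptor for the endoplasmic reticulum, was higher in PC in fasted mice (0.67 ± 0.11) and in fed mice (0.44 ± 0.11), and Stbd1 was higher in PC in fasted mice (1.34 ± 0.17, edgeR adjusted p = 0.00076). The AMPK subunit gene Prkab1 was lower in PC, at -0.87 ± 0.20 in fasted mice and -1.02 ± 0.20 in fed mice. With feeding states averaged, regulators had 3 of 13 higher in PC (Ppara, Nr1h4 and Zkscan3), 23.1%, and fusion 1 of 15 (Vps41), 6.67%, where 6.47% of all genes were higher.

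Whether fasting acted differently in the 2 zones was tested directly, as the fasting response in PC minus that in PP. 0 of the 37 members passed and 0% of all genes did (edgeR), with 3 members and 465 genes at an unadjusted p under 0.05; DESeq2 called 0 members and 11 genes. The 3 members were Sqstm1 (0.56 ± 0.17, 95% interval 0.19 to 0.93), Map1lc3b (0.48 ± 0.14, 95% interval 0.17 to 0.79) and Atg4d (0.53 ± 0.22, 95% interval 0.05 to 1.01), each with an edgeR adjusted p of 1. For Gabarapl1, which passed in PC and not in PP, the difference was 0.52 ± 0.38, with an interval from -0.32 to 1.35. The lowest differences were those of Pik3r4 (-0.26 ± 0.42) and Atg2a (-0.21 ± 0.17). For Bnip3 the interval of the difference ran from -0.36 to 0.44.

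In all, 21 of the 37 members were called in at least 1 of the 7 comparisons and 16 in none. The share of all genes called in at least 1 comparison was not computed. Fasting averaged over zones alone called 35.3% of all genes, so this count is not a result about the members. The 16 were Atg13, Becn1, Pik3r4, Atg2b, Atg9a, Atg3, Atg4c, Atg5, Atg10, Atg12, Atg16l1, Gabarap, Gabarapl2, Nbr1, Fundc1 and Tfeb. They include 6 of the 9 conjugation enzymes, and their mean level ran from 4.13 CPM for Atg10 to 180 CPM for Nbr1. Their log2 fold changes over the 6 comparisons of groups lay between -0.52 and 0.68, and their highest library exceeded their lowest by 1.22 to 3.23 times.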

How the data were processed

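RNA of 12 libraries was sequenced after preparation with a kit that, as named in the labels, does not mark strand. The authors deposited estimated counts per Ensembl gene, made with kallisto 0.46.0 on mm10 per the submitters' processing notes; the gene summary step is not given in the sources used here. The deposited counts were rounded to whole numbers, which moved a library total by at most 121. Symbols and positions came from GENCODE M21 (GRCm38): 27645 IDs matched and 385 did not. CPM values use library sizes scaled by TMM.

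Genes were filtered with filterByExpr (count minimum 10) and fitted with edgeR 4.0.16 (R 4.3.3; quasi-likelihood, robust) as 4 group means over all 12 libraries, with 8 residual degrees of freedom, a common biological coefficient of variation of 0.2055, 7 contrasts and Benjamini-Hochberg adjustment over 12086 genes. A gene was called at an adjusted p under 0.05. SEs were taken from the fold change and F of each test. DESeq2 1.42.0, RLE scaling, no filter, a replicate block and leaving out each library were the alternatives. Replicates of a group differed beyond counting noise (chi-square per degree of freedom 26.0 to 86.5). The fit was also run on counts simulated with its own gene means and spread. Such counts cannot show effects of a batch or an outlying library, and no result here rests on them.

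The members and the lists of other pathway genes were chosen with earlier results of these data known. Every library's value is given for members called in any comparison and for the 2 highest and 2 lowest log2 fold changes of each; of other lists, up to 3 called genes per direction are named, except for a lysosomal gene that is not reported here.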

Additional observations from a re-analysis of the deposited data

How the results depend on the processing

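No member's called direction reversed under any alternative. DESeq2 called 3 members and 895 genes between the zones of fed mice, against 1 and 570 in the edgeR fit, and 5 members against 2 between the zones of fasted mice. The share of all genes beside those 5 is not given here, so they cannot be read as particular to the members. For the difference of the fasting response between zones, DESeq2 called 11 genes and edgeR with no filter on low counts called 1, against 0. All other member and gene counts under DESeq2, RLE scaling and no filter stayed within 1.5 times. Of 47 called values of single members, DESeq2 kept 47, RLE scaling ended 1 and no filter ended 3; the cause was not tested.

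Leaving out each library in turn gave, between zones, 0 to 2 members and 292 to 701 genes in fed mice, 0 to 4 members and 386 to 1005 genes in fasted mice, and 3 to 5 members and 1164 to 1739 genes averaged. For fasting it gave 9 to 14 members and 1593 to 2618 genes in PC, 7 to 11 members and 1405 to 2414 genes in PP, and 15 to 19 members and 3549 to 4216 genes averaged. The difference between zones in the fasting response gave 0 members and 0 to 2 genes. Of 564 called values in these fits, 69 did not pass.

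Groups share replicate numbers, but same-numbered libraries did not all deviate together (correlations from -0.115 to 0.269, 3 of 18 over 0.1). The 3 were among the 6 pairs of PC and PP in one feeding state, of which 5 were above 0, and 4 of the 6 PC libraries correlated best with the PP library of their own number. Since not all pairs exceeded 0.1, the numbers were not read as pairs. With a replicate block, 4 members were called between zones in fasted mice (3 higher and 1 lower in PC) and 2 in fed mice (1 higher and 1 lower). The share of all genes called with the block is not given here, so these counts cannot be read as particular to the members. Ulk1 passed in both states with the block (adjusted p = 0.024 in fasted and 0.027 in fed mice), and Tfe3 in fasted PP (0.059) and Sqstm1 between zones averaged (0.057) did not.

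Depth limits the members unequally: the lowest count was 48, and 3 libraries a group leave intervals that miss small differences.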
